A study of Mus musculus with 8 samples.

Results

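Chemokine receptors are G protein-coupled receptors that steer cells along gradients of small secreted proteins, the chemokines. A cell reads its position in a tissue through the set of receptors it carries, and dendritic cells exchange one set for another as they mature. In the thymus, dendritic cells present antigen to developing T cells, and receptors such as Ccr7 and Xcr1 are known in mouse for bringing cells to the medulla, the inner zone where self-reactive T cells are deleted or become regulatory. The 9 genes described here are Ccr7, Xcr1, Cx3cr1, Ccr1, Ccr2, Ccr9, Cxcr3, Cxcr4 and Cmklr1. The first 8 encode receptors for chemokines, and Cmklr1 encodes a receptor for the attractant chemerin. They were chosen by symbol: a probe counted as a member where the transcript accession printed on the array mapped to 1 of these symbols. This gave 10 probes, 2 of them for Cx3cr1, of 55681 probes for 37208 genes or accessions on the array.

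Dendritic cells were sorted from mouse thymus into 4 groups with 2 arrays each: Sirpa-positive mature, Sirpa-positive immature, Sirpa-negative mature and Sirpa-negative immature. Sirpa is a surface receptor that marks the type 2 branch of conventional dendritic cells, and its absence in the thymus marks mostly the type 1 branch. The labels give no strain, genotype, age or treatment, do not name the marker by which maturity was judged, and leave unsaid if replicate arrays had their own mice or sorts. What the p-values below weigh is thus the spread among the 8 samples alone, possibly technical, and a receptor that served in the sort gate could not be told from one that did not. Total RNA was amplified, labelled with the dye Cy3 and hybridised to 1-colour Agilent arrays, all on 1 slide. In these sorted populations, fewer cells of a type and less RNA per cell cannot be told apart.

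The label of the sort was borne out by its own gene. Sirpa-positive cells exceeded Sirpa-negative cells in Sirpa signal by 6.83 ± 0.224 log2 units among immature cells (SE) and by 4.82 ± 0.224 among mature cells. Mature minus immature was 1.51 ± 0.224 for Sirpa within Sirpa-negative cells, where all arrays were well above background, and -0.50 ± 0.224 within Sirpa-positive cells. Per array, 52.9 to 65.5% of spots stood well above background, no spot was saturated, and the correlation between arrays was 0.979 to 0.987 within a group and 0.908 to 0.963 between groups. The share of spots well above background was 61.9 to 65.5% in row 1 of the slide and 52.9 to 57.9% in row 2. All 8 dendritic cell markers looked up were tested, and 7 of them (all but Bcl11a) were well above background on all 8 arrays. Of 8 natural killer cell markers, 4 to 7 were well above background per array, and Klrb1c on none.

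Values are given as relative signal, the processed signal of a probe divided by the 75th percentile of its array, so that 1 is the level of a probe brighter than 75% of the spots. Differences are on the log2 scale of that relative signal and come with their standard error (SE). Each adjusted p is from limma's moderated test, two-sided, fitted on all 8 arrays and corrected with the Benjamini-Hochberg method over all 24148 genes tested, with 0.05 as the threshold. All 9 receptors entered the test, since each was well above background on both replicates of 1 group or more. Ccr7, Ccr9 and Cxcr4 were well above background on all 8 arrays, and the other 6 were not on every array. Where a group was not well above background, a fold is written as "at least". It sets the mean of the bright group against a floor, which on each array is the dimmest signal that still counted as well above background, or the dim probe's signal where that is higher. The level of one probe is never set against that of another, since probes differ in how strongly they bind.

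**Figure D1:**
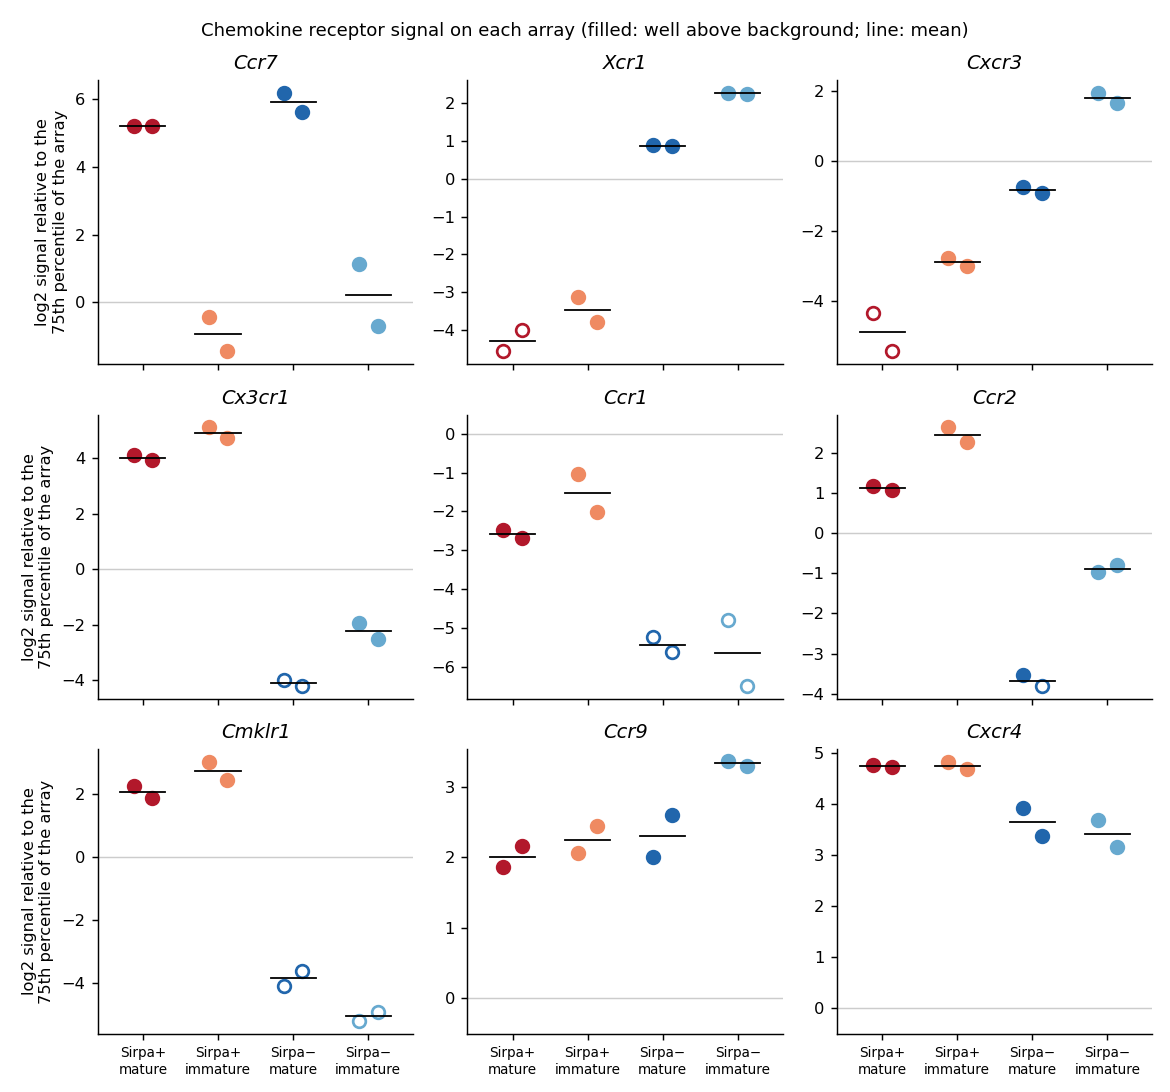
Log2 relative signal (vertical axis) of the 9 receptors on each of the 8 arrays, by group; filled points were well above background, open points were not, and the line is the mean of the 2 arrays. Ccr7 separates mature from immature cells, and Xcr1, Cxcr3, Cx3cr1, Ccr1, Ccr2 and Cmklr1 separate the Sirpa groups. Cxcr4 also separates the Sirpa groups but stays within 1.67 log2 units over all arrays, and Ccr9 stays within 1.5.

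The set held receptors that differed with maturity, between the Sirpa groups, or both. In mature against immature Sirpa-positive cells, 3 of 9 receptors passed the test, Ccr7 higher and Ccr2 and Cxcr3 lower, where 6.89% of all genes passed (4.35% higher and 2.54% lower). In mature against immature Sirpa-negative cells, 7 of 9 passed, Ccr7 and Cmklr1 higher and Xcr1, Cx3cr1, Ccr2, Ccr9 and Cxcr3 lower, where 16.5% of all genes passed (9.23% higher and 7.24% lower). Cmklr1 lay below background in both of those groups and entered the test through the Sirpa-positive groups. Between Sirpa-positive and Sirpa-negative cells, 8 of 9 passed among immature cells, 5 higher and 3 lower in Sirpa-positive cells, where 11.6% of all genes passed (7.23% higher and 4.39% lower). Among mature cells 6 of 9 passed, 4 higher and 2 lower, where 5.47% of all genes passed (3.38% higher and 2.1% lower). The median difference with maturity was -0.81 over the 9 receptors in Sirpa-positive cells, where the median of all genes was 0.03, and -1.03 in Sirpa-negative cells, where the median of all genes was -0.01. The arrays of the compared groups did not overlap for 7 receptors in Sirpa-positive maturation, 7 in Sirpa-negative maturation, 8 between immature subsets and 8 between mature subsets. For all genes these shares were 51.1, 57, 59.3 and 40.8%, so a lack of overlap between 2 and 2 arrays was common.

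Ccr7, the receptor for Ccl19 and Ccl21 that carries maturing dendritic cells to lymph nodes and thymocytes to the medulla, was the receptor that rose with maturity in both subsets. Its relative signal was 37 and 37.3 in Sirpa-positive mature cells, against 0.733 and 0.366 in Sirpa-positive immature cells. In Sirpa-negative cells it was 73.5 and 49.3 when mature, against 2.21 and 0.617 when immature. Every mature array lay above every immature array, and the immature Sirpa-negative pair was the one that spread most. The difference was 6.16 ± 0.597 in Sirpa-positive cells (71.7-fold, adjusted p = 0.00255) and 5.69 ± 0.597 in Sirpa-negative cells (51.5-fold, adjusted p = 0.00159, limma). Each of the 2 rows of the slide held 1 array of every group, and within the rows the difference was 6.66 and 5.67 in Sirpa-positive cells and 6.90 and 4.48 in Sirpa-negative cells. The call held in all 19 alternative analyses of both comparisons.

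Between the subsets Ccr7 showed no difference that passed. Sirpa-positive minus Sirpa-negative was -0.70 among mature cells, with a 95% interval of -2.10 to 0.71 (adjusted p = 0.694). Among immature cells it was -1.17, with an interval of -2.58 to 0.23 (adjusted p = 0.28). Without the Sirpa-negative immature replicate 7, whose signal was the lower of its pair, the immature difference was -2.09 and passed (adjusted p = 0.0394). In order of level, the groups were Sirpa-negative mature, Sirpa-positive mature, Sirpa-negative immature and Sirpa-positive immature, and only the step from the second to the third passed (4.99 ± 0.597, adjusted p = 0.00132, limma). Cd40, the costimulatory receptor named in the title of the study, also rose with maturity, by 2.16 ± 0.314 in Sirpa-positive cells (adjusted p = 0.0103) and 3.04 ± 0.314 in Sirpa-negative cells (adjusted p = 0.00148).

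**Figure D2:**
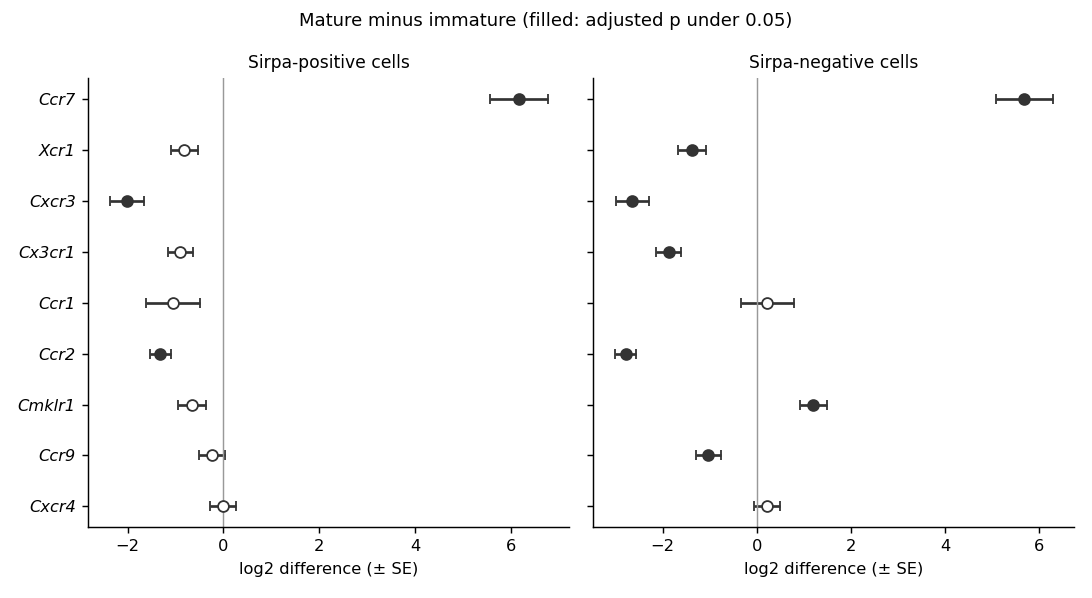
Log2 difference of mature minus immature cells (horizontal axis, bars are ± SE) for the 9 receptors, in Sirpa-positive cells on the left and Sirpa-negative cells on the right; filled points passed the test. Ccr7 lies near 6 in both panels, while 5 of the other 8 receptors passed below 0 in Sirpa-negative cells and 2 of 8 in Sirpa-positive cells.

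Xcr1 and Cxcr3 were the receptors of the Sirpa-negative cells. Xcr1 binds Xcl1 and is the defining chemokine receptor of type 1 dendritic cells. Cxcr3 binds Cxcl9 and Cxcl10 and is best known on activated T cells and natural killer cells. The RefSeq sequences around their starts are shown because they, with those of Cx3cr1 and Cmklr1 further on, belong to the 4 receptors with the largest differences between immature subsets. Each runs 5′ to 3′ on the strand of the gene, from 250 bases before to 50 bases after the start, in build GRCm38.p6. The Xcr1 window is chr9:123861980-123862279 on the minus strand, and the Cxcr3 window is chrX:101734098-101734397 on the minus strand. Capitals mark matches to the motifs given further on.
Xcr1: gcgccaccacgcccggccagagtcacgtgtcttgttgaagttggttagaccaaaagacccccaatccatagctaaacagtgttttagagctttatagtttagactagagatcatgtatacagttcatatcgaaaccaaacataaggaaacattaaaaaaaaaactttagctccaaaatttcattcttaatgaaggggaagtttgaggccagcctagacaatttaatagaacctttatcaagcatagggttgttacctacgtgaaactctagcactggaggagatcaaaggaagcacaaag
Cxcr3: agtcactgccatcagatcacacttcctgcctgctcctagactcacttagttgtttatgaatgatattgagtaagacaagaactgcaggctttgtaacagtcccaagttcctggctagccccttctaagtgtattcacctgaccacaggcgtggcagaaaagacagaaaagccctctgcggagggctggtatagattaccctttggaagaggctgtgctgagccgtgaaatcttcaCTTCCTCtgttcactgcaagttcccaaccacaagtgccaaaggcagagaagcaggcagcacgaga

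Xcr1 had a relative signal of 0.114 and 0.0724 in Sirpa-positive immature cells, against 4.82 and 4.69 in Sirpa-negative immature cells. In Sirpa-positive mature cells it was 0.0426 and 0.063, not well above background on either array, against 1.84 and 1.83 in Sirpa-negative mature cells. The Sirpa groups did not overlap at either stage. Sirpa-positive minus Sirpa-negative was -5.71 ± 0.29 among immature cells (52.3-fold, adjusted p = 5.65e-05) and -5.15 ± 0.29 among mature cells (at least 27.8-fold, adjusted p = 0.000146). Within the slide rows these differences were -6.02 and -5.40 among immature cells and -5.43 and -4.86 among mature cells. The alternative called normexp here took the median spot signal, corrected its background by normexp with an added offset, and quantile-normalized it. With normexp the subset differences were smaller but still called (-3.60 and -2.57), as was the mature one in the authors' own values (-3.21). Which step of normexp made them smaller was not tested. Xcr1 also fell with maturity in Sirpa-negative cells, by 1.37 on the log2 scale with an SE of 0.29 (2.59-fold, adjusted p = 0.0198). That fall kept its direction in all alternatives but lost the call without any 1 of the 4 Sirpa-negative arrays (mature replicates 2 and 8, immature replicates 4 and 7), with adjusted p of 0.087, 0.0839, 0.101 and 0.0709. In Sirpa-positive cells the difference with maturity was -0.81 ± 0.29 and did not pass (adjusted p = 0.166).

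Cxcr3 followed the same order of groups as Xcr1: Sirpa-negative immature, Sirpa-negative mature, Sirpa-positive immature and Sirpa-positive mature. For Cxcr3 every step of that order passed, with differences of 2.64, 2.06 and 2.01, while for Xcr1 the last step, 0.81, did not. Cxcr3 had a relative signal of 0.146 and 0.125 in Sirpa-positive immature cells, against 3.88 and 3.16 in Sirpa-negative immature cells. It was 0.049 and 0.023 in Sirpa-positive mature cells, not well above background on either array, against 0.598 and 0.528 in Sirpa-negative mature cells. No array of one group reached into another. The subset difference was -4.70 ± 0.354 among immature cells (25.9-fold, adjusted p = 0.000262) and -4.06 ± 0.354 among mature cells (at least 7.94-fold, adjusted p = 0.000948). With normexp these were -3.08 and -1.47, and the mature one was -2.18 in the authors' own values, all still called.

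With maturity Cxcr3 fell in both subsets. The difference was -2.64 ± 0.354 in Sirpa-negative cells (6.24-fold lower in mature cells, adjusted p = 0.0038) and -2.01 ± 0.354 in Sirpa-positive cells (at least 1.91-fold lower in mature cells, adjusted p = 0.0198, limma). Within the slide rows it was -2.40 and -2.88 in Sirpa-negative cells and -1.35 and -2.66 in Sirpa-positive cells. The Sirpa-negative call held in every alternative. The Sirpa-positive call was lost without the immature replicates 5 or 3, the mature replicate 6 or the Sirpa-negative mature replicate 8 (adjusted p = 0.0901, 0.157, 0.0841 and 0.0538), with normexp it was -0.51 and not called (adjusted p = 0.097), and in the authors' own values it was -0.88 and called.

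Cx3cr1, Cmklr1, Ccr1 and Ccr2 were the receptors of the Sirpa-positive cells. Cx3cr1 binds Cx3cl1, known as fractalkine, and is carried by monocytes and tissue macrophages. Cmklr1 binds chemerin, the product of Rarres2. Ccr1 binds several inflammatory chemokines, Ccl3 and Ccl5 among them, and Ccr2 binds Ccl2 and is known for the exit of monocytes from bone marrow. The Cx3cr1 window is chr9:120068247-120068546 on the minus strand, and the Cmklr1 window is chr5:113643554-113643853 on the minus strand, both of GRCm38.p6 and from RefSeq.
Cx3cr1: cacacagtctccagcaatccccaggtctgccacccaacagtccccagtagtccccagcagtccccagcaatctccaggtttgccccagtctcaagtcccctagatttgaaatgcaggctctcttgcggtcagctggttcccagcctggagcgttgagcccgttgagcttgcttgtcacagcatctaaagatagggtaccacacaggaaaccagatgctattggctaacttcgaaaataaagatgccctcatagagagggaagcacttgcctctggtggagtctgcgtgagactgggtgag
Cmklr1: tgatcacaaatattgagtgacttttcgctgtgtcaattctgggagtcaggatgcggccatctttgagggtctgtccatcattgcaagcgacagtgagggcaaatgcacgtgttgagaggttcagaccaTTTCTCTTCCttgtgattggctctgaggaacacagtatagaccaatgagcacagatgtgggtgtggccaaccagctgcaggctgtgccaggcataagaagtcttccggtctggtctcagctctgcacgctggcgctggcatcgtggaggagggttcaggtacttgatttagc

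The 8 receptors with a promoter in the RefSeq table were searched on both strands for 4 motifs. The composite element of an ETS factor with an IRF factor, GGAA and GAAA with any 2 bases between them, was found in 1 of the 8, Cmklr1, with its first base at position -122 from the start, and in 2.72% of 32851 promoters of the same length. GAGGAAG, the core bound by PU.1, was found in Cxcr3 at position -15 and in 13.6% of all promoters. The IRF element, GAAA and GAAA with any 2 bases between them, and the NF-kB element, GGGA and TTCC with any 2 bases between them, were found in none of the 8, and in 3.44% and 1.47% of all promoters. A match says only that these letters stand in the window. The composite element and the IRF element share the letters GAAA, so 1 stretch can count for both.

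Cx3cr1 had a relative signal of 34.7 and 26.7 in Sirpa-positive immature cells, against 0.263 and 0.174 in Sirpa-negative immature cells. In Sirpa-positive mature cells it was 17.4 and 15.4, against 0.0632 and 0.0541 in Sirpa-negative mature cells, where neither array was well above background. The subset difference was 7.16 ± 0.268 among immature cells (143-fold, adjusted p = 2.37e-05) and 8.13 ± 0.268 among mature cells (at least 280-fold, adjusted p = 7.29e-05). Within the slide rows it was 7.27 and 7.05 among immature cells and 8.11 and 8.15 among mature cells. A second, dimmer probe of Cx3cr1 gave 6.79 among immature and 6.57 among mature cells, and was not well above background on any Sirpa-negative array.

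With maturity, Cx3cr1 passed in Sirpa-negative cells and not in Sirpa-positive cells. In Sirpa-negative cells the difference was -1.87 ± 0.268 (at least 3.65-fold lower in mature cells, adjusted p = 0.00489). The dimmer probe gave -0.83 there with both groups below background (adjusted p = 0.0836). For the brighter probe the difference was -0.59 with normexp (adjusted p = 0.0811) and -0.90 in the authors' own values (adjusted p = 0.0214). In Sirpa-positive cells the difference was -0.90 ± 0.268 and did not pass (adjusted p = 0.105), with a 95% interval of -1.53 to -0.27. It passed in 5 of 18 alternatives, among them blocking on title set, arrays numbered 1 to 4 or 5 to 8 in their titles (-0.90, adjusted p = 0.0443), the mean of both probes (-0.97, adjusted p = 0.0365) and the authors' own values (-0.91, adjusted p = 0.034).

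Cmklr1 had a relative signal of 8 and 5.4 in Sirpa-positive immature cells, against 0.0275 and 0.0334 in Sirpa-negative immature cells. It was 4.76 and 3.66 in Sirpa-positive mature cells, against 0.0591 and 0.0823 in Sirpa-negative mature cells. None of the 4 Sirpa-negative arrays was well above background for Cmklr1, and all 4 Sirpa-positive arrays were. The subset difference was 7.76 ± 0.292 among immature cells (at least 96.9-fold, adjusted p = 2.37e-05) and 5.90 ± 0.292 among mature cells (at least 59.9-fold, adjusted p = 9.52e-05), and with normexp it was 4.35 and 3.56, still called. In Sirpa-positive cells the difference with maturity was -0.65 ± 0.292 and did not pass (adjusted p = 0.268). In Sirpa-negative cells the fitted difference was 1.20 ± 0.292 and passed (adjusted p = 0.0317), but both groups lay below background, so no fold is given. That call held in 5 of 18 alternatives, was lost with the slide row as a block (adjusted p = 0.0562), and the difference was 0.20 with normexp (adjusted p = 0.578) and 0.34 in the authors' own values (adjusted p = 0.366). It was also lost without any 1 of the Sirpa-negative mature replicates 2 and 8, the immature replicates 4 and 7, the Sirpa-positive immature replicate 3 or the mature replicate 6, with adjusted p of 0.0603, 0.143, 0.163, 0.0731, 0.0546 and 0.0579.

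Ccr2 was the receptor of this group that changed with maturity on both sides. Its relative signal was 2.26 and 2.1 in Sirpa-positive mature cells, against 6.17 and 4.8 in Sirpa-positive immature cells. In Sirpa-negative cells it was 0.0861 and 0.0715 when mature, the second of them not well above background, against 0.511 and 0.573 when immature. All 4 groups were apart from one another. The Ccr2 level of Sirpa-positive cells exceeded that of Sirpa-negative cells by 3.33 ± 0.22 among immature cells (10.1-fold, adjusted p = 0.000141) and by 4.80 ± 0.22 among mature cells (27.8-fold, adjusted p = 8.67e-05), the second being 2.88 with normexp. With maturity it fell by 1.32 in Sirpa-positive cells (SE 0.22, 2.5-fold, adjusted p = 0.0163) and by 2.78 in Sirpa-negative cells (SE 0.22, 6.89-fold, adjusted p = 0.000696). The Sirpa-positive fall was -1.09 and -1.55 within the slide rows. It was no longer called without any 1 of the Sirpa-positive arrays (mature replicates 1 and 6, immature replicates 3 and 5), with adjusted p of 0.0524, 0.117, 0.152 and 0.054. The Sirpa-negative fall was -2.73 and -2.84 within the slide rows and held in every alternative, though it was -1.27 with normexp and -1.74 in the authors' own values.

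Ccr1 was dim in every group and entered the test through the Sirpa-positive groups alone. Its relative signal was 0.489 and 0.247 in Sirpa-positive immature cells, against 0.0359 and 0.011 in Sirpa-negative immature cells. It was 0.179 and 0.156 in Sirpa-positive mature cells, against 0.0265 and 0.0203 in Sirpa-negative mature cells. No Sirpa-negative array was well above background, so the subset differences, 4.13 ± 0.559 among immature cells (adjusted p = 0.00338) and 2.85 ± 0.559 among mature cells (adjusted p = 0.0299), amount to at least 5.12-fold and at least 3.33-fold. With normexp they were 1.13, still called, and 0.64, not called (adjusted p = 0.0913), and in the authors' own values 1.65 and 1.01, both called. Without 1 of the mature arrays (Sirpa-positive replicates 1 and 6, Sirpa-negative replicates 2 and 8) or the Sirpa-positive immature replicate 3, the mature difference was between 2.66 and 3.04 and was no longer called (adjusted p = 0.12, 0.162, 0.0942, 0.174 and 0.0595). With maturity Ccr1 did not pass in either subset: the difference was -1.05 ± 0.559 in Sirpa-positive cells (adjusted p = 0.361) and 0.22 ± 0.559 in Sirpa-negative cells (adjusted p = 0.836), and the sign of the second turned with the normalization.

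**Figure D3:**
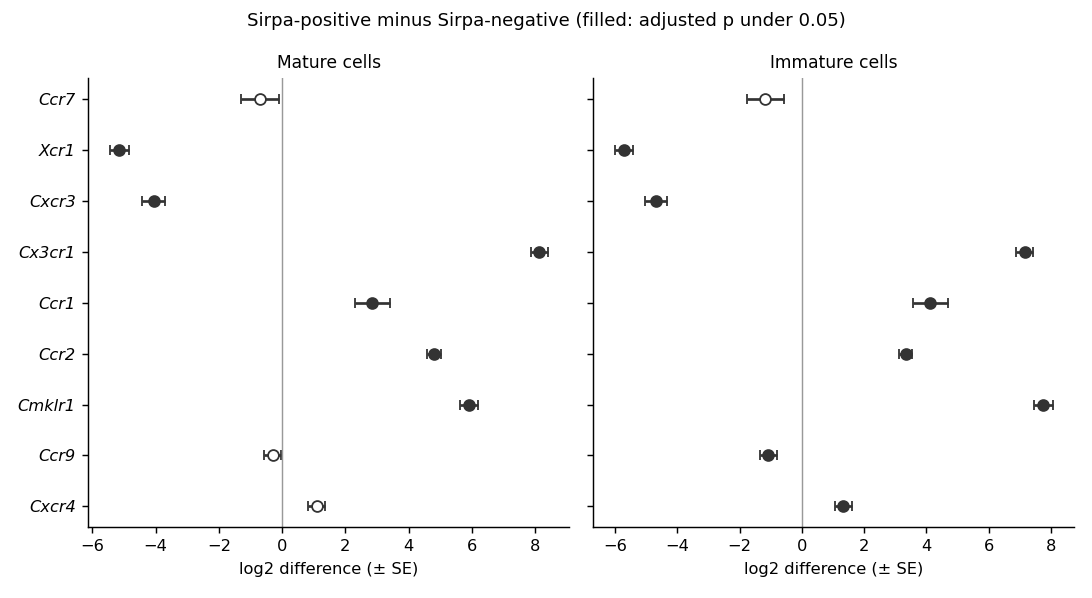
Log2 difference of Sirpa-positive minus Sirpa-negative cells (horizontal axis, bars are ± SE) for the 9 receptors, among mature cells and among immature cells; filled points passed the test. Cx3cr1, Cmklr1, Ccr1 and Ccr2 lie above 0 and Xcr1 and Cxcr3 below 0 at both stages, while Ccr7 did not pass at either.

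Ccr9 and Cxcr4 were well above background on all 8 arrays and varied least. Ccr9 binds Ccl25 and is known for bringing T cell progenitors and plasmacytoid dendritic cells into the thymus. Its relative signal was 3.62 and 4.47 in Sirpa-positive mature cells, 4.16 and 5.43 in Sirpa-positive immature cells, 4.01 and 6.07 in Sirpa-negative mature cells, and 10.3 and 9.82 in Sirpa-negative immature cells. The Sirpa-negative immature pair stood above all other arrays, and the other groups overlapped. Ccr9 was lower in mature than in immature Sirpa-negative cells, by -1.03 ± 0.271 (2.04-fold, adjusted p = 0.0426), and lower in immature cells that were Sirpa-positive than in those that were Sirpa-negative, by -1.08 ± 0.271 (2.11-fold, adjusted p = 0.0449). Within the slide rows the first difference was -1.29 and -0.76 and the second -0.85 and -1.30. With the slide row as a block both calls were lost (adjusted p = 0.0693 and 0.0747). Both were also lost without any 1 of Sirpa-positive mature replicates 1 and 6, Sirpa-positive immature replicates 3 and 5 and Sirpa-negative immature replicates 4 and 7, with adjusted p from 0.0601 to 0.173 for the first and from 0.0632 to 0.326 for the second. The first was lost without Sirpa-negative mature replicate 2 as well (-0.73, adjusted p = 0.186).

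The remaining Ccr9 differences did not pass. With maturity it was -0.24 in Sirpa-positive cells, with a 95% interval of -0.88 to 0.40 (adjusted p = 0.702). Between mature subsets it was -0.29, with an interval of -0.93 to 0.34 (adjusted p = 0.726). Ccl25 was well above background on all 8 arrays, with relative signals of 5.05 and 5.34 in Sirpa-positive mature, 5.08 and 4.07 in Sirpa-positive immature, 4.32 and 4.41 in Sirpa-negative mature and 2.32 and 3.03 in Sirpa-negative immature cells. None of its differences passed, the smallest adjusted p being 0.0704. Ccl25 was picked for mention after its values were seen.

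Cxcr4 binds Cxcl12, which stromal cells of bone marrow and thymus make, and holds progenitors and immature leukocytes near that stroma. Its relative signal was 27 and 26.4 in Sirpa-positive mature cells, against 15.1 and 10.3 in Sirpa-negative mature cells. It was 28.4 and 25.5 in Sirpa-positive immature cells, against 12.8 and 8.92 in Sirpa-negative immature cells. Each Sirpa-positive array lay above each Sirpa-negative array, and mature and immature arrays overlapped within both subsets. Sirpa-positive minus Sirpa-negative was 1.33 ± 0.27 among immature cells (2.52-fold, adjusted p = 0.0195) and 1.10 ± 0.27 among mature cells (2.14-fold, adjusted p = 0.068). The immature call was lost without the Sirpa-negative immature replicate 7, the Sirpa-positive immature replicates 5 or 3 or the Sirpa-positive mature replicate 6 (adjusted p = 0.0945, 0.0798, 0.171 and 0.0508), and the mature difference passed in 6 of 19 alternatives, blocking on title set among them (1.10, adjusted p = 0.0368). With maturity the difference was -0.01 in Sirpa-positive cells, with a 95% interval of -0.65 to 0.62, and 0.22 in Sirpa-negative cells, with an interval of -0.41 to 0.86.

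Whether maturity moved a receptor differently in the 2 subsets was tested directly, as the difference of the maturation differences. For no receptor, and for none of the 24148 genes, did it pass after adjustment with limma. At an unadjusted p under 0.05 it was met by 3 of 9 receptors, Ccr2, Cx3cr1 and Cmklr1, and by 1946 genes, 8.06% of those tested. For Ccr2 it was 1.47 ± 0.311 (95% interval 0.73 to 2.20, adjusted p = 0.163), and 0.060 with normexp. Cx3cr1 gave 0.97 ± 0.379 (0.08 to 1.86, adjusted p = 0.55), and -0.32 with normexp. Its dimmer probe gave -0.22 ± 0.382, and neither probe was well above background on the Sirpa-negative mature arrays. For Ccr7 the value was 0.48 ± 0.845, with an interval of -1.51 to 2.46, so the arrays did not separate a larger rise in one subset from an equal one. Other analyses of all 8 arrays called between 0 and 186 genes, the highest count with trended and robust variances. Cxcr3 was the 1 receptor called in any of them, with normexp followed by quantile normalization (1.60 ± 0.237, adjusted p = 0.0161). Cxcr3 was not well above background on either Sirpa-positive mature array, and which step of this alternative moved its value was not tested. Its Sirpa-positive maturation difference was -0.51 with normexp, against -2.01 in the main analysis.

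Of the 9 receptors, 4 (Ccr9, Xcr1, Ccr1 and Ccr2) lie close together on mouse chromosome 9. In the RefSeq annotation of GRCm38.p6 the stretch from Ccr9 to Ccr2 holds 8 protein-coding genes in the order Ccr9, Fyco1, Cxcr6, Xcr1, Ccr1, Ccr1l1, Ccr3 and Ccr2, and 7 of them are chemokine receptors, of which 6 were tested. The subset differences of 2 neighbours lay on opposite sides of 0: Xcr1 had -5.71 among immature and -5.15 among mature cells, and Ccr1, the next gene, had 4.13 and 2.85. From Ccr1 onwards the differences of the tested receptors lay above 0 at both stages. Ccr1l1, a close relative of Ccr1, had 2.03 ± 0.365 among immature cells (adjusted p = 0.0119) and 1.14 ± 0.365 among mature cells, where it did not pass (adjusted p = 0.155). It entered the test through the Sirpa-positive immature cells alone. Cxcr6, the receptor for Cxcl16, had 0.14 ± 0.311 among immature and -0.29 ± 0.311 among mature cells and did not pass. Ccr1 and Ccr1l1 are close in sequence, and whether their probes bind each other's RNA was not tested.

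**Figure D4:**
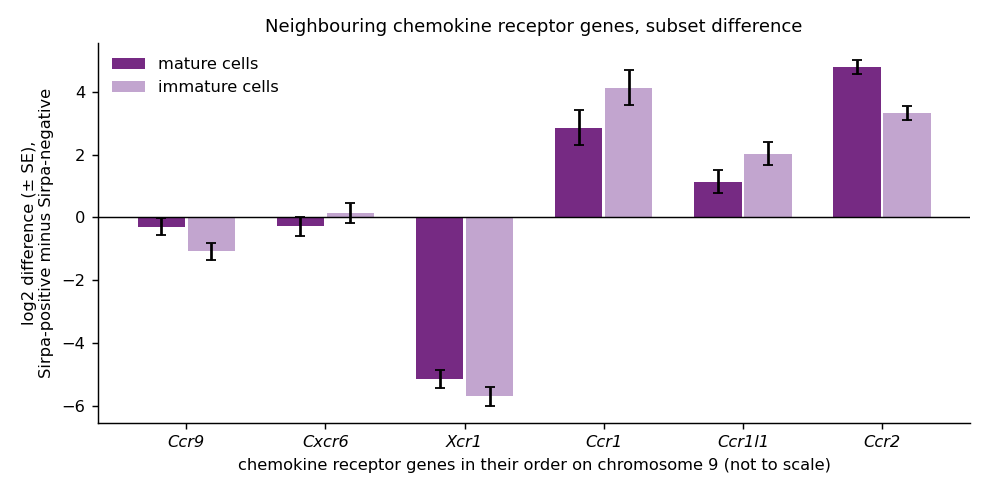
Log2 difference of Sirpa-positive minus Sirpa-negative cells (vertical axis, error bars are ± SE) for the 6 tested chemokine receptors of this stretch of chromosome 9, in gene order and not to scale; dark bars are mature cells and light bars immature cells. Xcr1 lies below -5 at both stages and its neighbour Ccr1 above 2, followed by Ccr1l1 and Ccr2, both above 0.

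Each receptor was also set against the other genes tested to name those with the most similar pattern over the 8 arrays, by Pearson correlation (r). These values describe arrays that fall into 4 groups and carry no test. Closest to Ccr7 were Cacnb3 (0.997), a subunit of voltage-gated calcium channels, Arc (0.995) and Apol7a (0.994). Closest to Xcr1 were Agpat3 (0.998), Plpp1 (0.994) and Clec9a (0.992), a lectin receptor of type 1 dendritic cells for dying cells. Cx3cr1 was closest to Gbgt1 (0.997), the macrophage marker Adgre1 (0.996) and Pltp (0.995). Cmklr1 was closest to Ifit3b (0.998), Ctsd (0.997), which encodes the lysosomal protease cathepsin D, and Selenop (0.996). For Cxcr3 these were Fam149a (0.995), Clec4b2 (0.994) and Pianp (0.989), for Ccr2 Frrs1 (0.995), Tcirg1 (0.993) and Nt5dc2 (0.993), and for Ccr1 Slc16a9 (0.993), Gm5150 (0.992) and Npnt (0.989). For the 2 receptors that varied least they were Swsap1, Tmem258 and Uchl4 (0.990 to 0.991) beside Ccr9, and Lpl (0.991), Gm1673 and Pld1 (0.989) beside Cxcr4.

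Of 16 other chemokine receptors on the array, 10 were tested. With maturity, 5 were higher and 1 lower in Sirpa-negative cells, and 1 was higher and 1 lower in Sirpa-positive cells. Of all genes, 16.5% and 6.89% passed in these comparisons. In Sirpa-negative cells the 3 with the smallest p among those higher were Cxcr1 (at least 3.64-fold), Ccr6 (2.79-fold) and Ackr1 (3.97-fold), a decoy receptor. In Sirpa-positive cells Cxcr1 passed with both groups below background, and Ccr1l1 was 3.31-fold lower in mature cells. Cxcr1 entered the test through the Sirpa-negative mature cells alone, and Ccr1l1 and Ccr10 through the Sirpa-positive immature cells alone. Cxcr5 entered it through the mature groups alone. The filter thus favoured high values of each in those groups. Between subsets, 5 of the 10 were higher in Sirpa-positive immature cells and none lower, led by Ccr6 (14.9-fold), Ccrl2 (7.22-fold) and Ackr1 (9.34-fold). Among mature cells 3 were higher, Ccr6 (3.83-fold) and Ackr1 (3.44-fold) among them, and Cxcr1 was lower (at least 3.79-fold). Of all genes, 11.6% passed between immature subsets and 5.47% between mature subsets.

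Of 22 ligand genes looked up for the 9 receptors, 18 were found on the array and tested. Ccl21a, Ccl21b, Ccl21d and Cxcl11 were matched to no probe. In mature cells 2 of the 18 were higher and 1 lower in the Sirpa-positive subset, and 6 higher and 2 lower in the Sirpa-negative subset. Of all genes, 6.89% and 16.5% passed in these comparisons. Ccl5, a ligand of Ccr1, had relative signals of 115 and 131 in Sirpa-positive mature cells, against 7.82 and 6.54 in Sirpa-positive immature cells. In Sirpa-negative cells it was 203 and 199 when mature, against 10.9 and 4.87 when immature. Mature and immature arrays of Ccl5 did not overlap, and it rose 17.1-fold in the Sirpa-positive (adjusted p = 0.002) and 27.6-fold in the Sirpa-negative subset (adjusted p = 0.000599). Cx3cl1, the ligand of Cx3cr1, rose 5.91-fold and 13.9-fold in the same 2 comparisons (adjusted p = 0.00286 and 0.000513), while its receptor gave -0.90 and -1.87. Ccl9, another ligand of Ccr1, rose 6.29-fold in Sirpa-negative cells, Mif fell 1.95-fold there, and Ccl6 fell 1.95-fold in Sirpa-positive cells. Ccl19, a ligand of Ccr7, named here after its values were seen, rose 2.75-fold in Sirpa-negative cells (adjusted p = 0.00777) and gave 0.79 ± 0.237 in Sirpa-positive cells (adjusted p = 0.107). Xcl1, the ligand of Xcr1, was well above background only in Sirpa-negative immature cells, at 0.164 and 0.195, and was at least 3.56-fold lower in Sirpa-negative mature cells (adjusted p = 0.022). Xcl1 entered the test through the Sirpa-negative immature cells alone, so the filter favoured high values there. Between subsets, 7 ligands were higher and 2 lower in Sirpa-positive immature cells, and 7 were higher and 1 lower in Sirpa-positive mature cells. Here 11.6% and 5.47% of all genes passed. Ccl9 and Ccl6 were 25.9-fold and 11.3-fold higher in Sirpa-positive cells among mature cells, and 156-fold and 22-fold higher among immature cells, where Ccl8 was at least 24.5-fold higher and Xcl1 at least 3.53-fold lower. Ccl8 and Ccl12 entered the test through the Sirpa-positive groups alone, and Ccl7 through the Sirpa-positive immature cells alone. For these ligands too the filter favoured high values there. Cxcl9, a ligand of Cxcr3, was lower in Sirpa-positive than in Sirpa-negative cells, 2.67-fold among immature (adjusted p = 0.0273) and 3.72-fold among mature cells (adjusted p = 0.0147). Cxcl10, another ligand of Cxcr3, was higher in Sirpa-positive cells, 8.24-fold among immature (adjusted p = 0.000654) and 7.14-fold among mature cells (adjusted p = 0.00168).

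**Figure D5:**
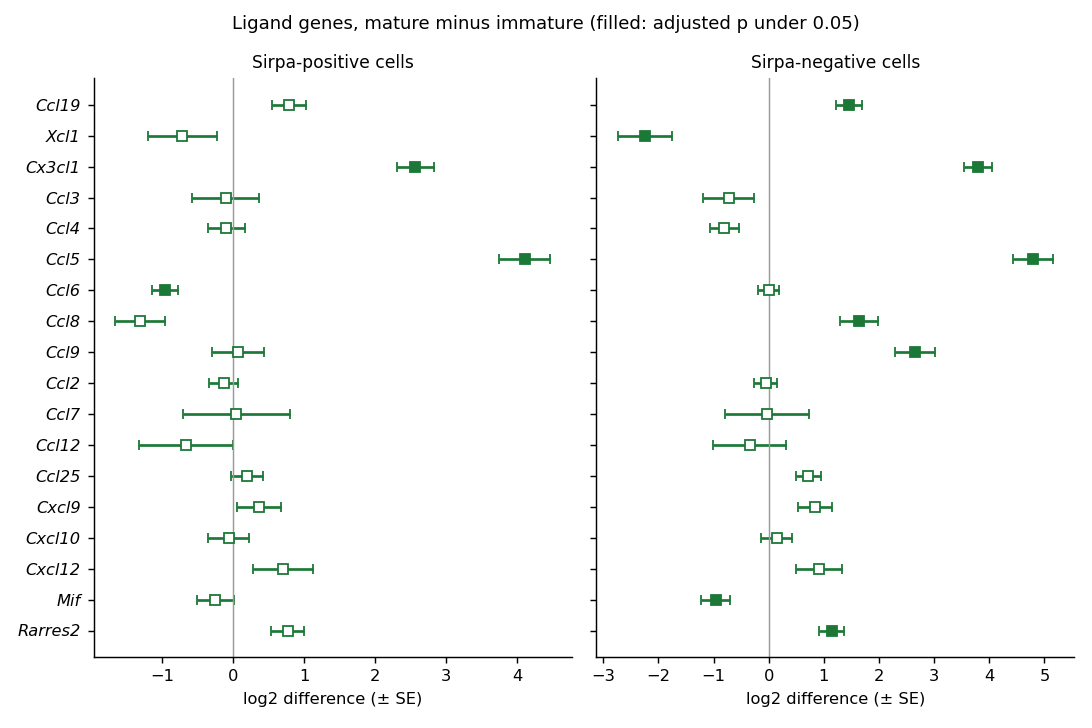
Log2 difference of mature minus immature cells (horizontal axis, bars are ± SE) for 18 ligands of the receptors, in Sirpa-positive cells on the left and Sirpa-negative cells on the right; filled squares passed the test. Ccl5 and Cx3cl1 passed above 0 in both panels, and Ccl6 below 0 on the left and Xcl1 and Mif below 0 on the right.

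Among 33 genes of signalling downstream of chemokine receptors, 2 were higher and 4 lower in mature Sirpa-positive cells, and 3 were higher and 8 lower in mature Sirpa-negative cells. Of all genes, 4.35% were higher and 2.54% lower in the first comparison, and 9.23% and 7.24% in the second. Rgs1, which shortens G protein signals, rose 5.19-fold and 12.5-fold in the Sirpa-positive and Sirpa-negative subsets (adjusted p = 0.0218 and 0.00239). Rgs18, of the same family, fell 8.09-fold and 4.76-fold (adjusted p = 0.00336 and 0.00445). Plcb2, a phospholipase activated by G proteins, fell 2.05-fold and 2.51-fold, and Pik3r5, a regulatory subunit of phosphoinositide 3-kinase gamma, rose 2.11-fold and 1.65-fold. Rgs14 was also lower in mature cells, 2.48-fold in the Sirpa-positive and 3.19-fold in the Sirpa-negative subset. In mature Sirpa-negative cells Gng2, a G protein gamma subunit, was lower (3.66-fold) and Ptk2b was higher (1.91-fold). Between subsets, 2 of 33 passed among immature cells and 1 of 33 among mature cells, where 11.6% and 5.47% of all genes passed. Rac2, a small GTPase of leukocyte movement, was higher in Sirpa-positive cells, 2.67-fold among immature and 2.21-fold among mature cells. Ptk2b was higher among immature cells (1.81-fold).

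Markers of other cells moved beside these receptors. Of all genes, 11.6% passed between immature and 5.47% between mature subsets, and 6.89% and 16.5% in Sirpa-positive and Sirpa-negative maturation. All 15 macrophage and monocyte markers tested, Csf1r, C1qa and Adgre1 among them, were higher in immature cells of the Sirpa-positive subset, and 12 of 15 were higher in its mature cells, the direction of Cx3cr1, Cmklr1, Ccr1 and Ccr2. Their summed relative signal was 398 to 428 in Sirpa-positive mature, 509 to 666 in Sirpa-positive immature, 17 to 19.3 in Sirpa-negative mature and 15.5 to 16.3 in Sirpa-negative immature cells, and all 15 were well above background on every Sirpa-positive array. On the Sirpa-negative arrays 10 to 13 of the 15 were, and Mrc1 and C1qc were not on any of them. Mrc1, C1qc, Mertk and Maf entered the test through the Sirpa-positive groups alone, so the filter favoured high values there. With maturity, 0 of the 15 markers were higher and 3 lower in Sirpa-positive cells, and 3 were higher and 1 lower in Sirpa-negative cells. All 10 type 1 dendritic cell markers tested were lower in immature cells of the Sirpa-positive subset, and 8 of 10 in its mature cells, the direction of Xcr1 and Cxcr3. Of 11 type 2 markers, 9 were higher in Sirpa-positive immature cells and 6 in Sirpa-positive mature cells, and Csf1r stands in both this list and the macrophage list. The type 1 marker Gcsam entered the test through the Sirpa-negative groups alone, and the type 2 marker Clec4a4 through the Sirpa-positive groups alone. With maturity, 2 type 1 markers were higher and 1 lower in Sirpa-positive cells, and 0 were higher and 4 lower in Sirpa-negative cells. Of the type 2 markers, 1 was higher and 3 lower in Sirpa-positive cells, and 3 were higher and 2 lower in Sirpa-negative cells.

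In the direction of Ccr7, 5 of 20 markers of thymocytes and T cells were higher in mature Sirpa-positive cells and 14 in mature Sirpa-negative cells. Of all genes, 4.35% and 9.23% were higher, and none of the 20 markers was lower. Their summed relative signal was 48.9 to 52.7 in Sirpa-positive mature cells, against 21 to 21.7 in Sirpa-positive immature cells, and 58.3 to 66.2 in Sirpa-negative mature cells, against 18.4 to 19.8 in Sirpa-negative immature cells. Of 13 plasmacytoid dendritic cell markers, 4 were higher in Sirpa-positive cells at each stage, where 7.23% (immature) and 3.38% (mature) of all genes were. These markers summed to 194 to 240 in Sirpa-positive mature, 234 to 240 in Sirpa-positive immature, 149 to 161 in Sirpa-negative mature and 246 to 253 in Sirpa-negative immature cells. The thymocyte marker Rag2 entered the test through the Sirpa-negative mature cells alone, and the plasmacytoid marker Klra17 through the Sirpa-positive groups alone. The filter favoured high values of each there. Monocytes and macrophages are known to express Cx3cr1, Ccr1, Ccr2 and Cmklr1, and plasmacytoid dendritic cells Ccr9. T cells and thymocytes are known to express Ccr7, Ccr9, Cxcr3 and Cxcr4. Of these, Cxcr3 was lower in mature Sirpa-positive and Sirpa-negative cells (-2.01 and -2.64). Ccr9 was lower in mature Sirpa-negative cells (-1.03), and Cxcr4 did not pass in either subset (-0.01 and 0.22). Of 7 B cell, 6 natural killer cell and 6 thymic epithelial markers tested, at most 2 of a list passed in any 1 direction of a comparison. In mature Sirpa-positive cells 2 of 7 B cell markers were higher, where 4.35% of all genes were. Among immature cells 2 of 6 thymic epithelial markers were higher in the Sirpa-positive subset, where 7.23% of all genes were. The epithelial marker Prss16 entered the test through the Sirpa-positive groups alone. The part of such cells in the results above was not tested.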

How the data were processed

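The deposited scanner files hold spot intensity values of 8 1-colour arrays read with Agilent Feature Extraction 10.7.3.1, per the file headers, while the submitters' processing notes name version 10.5 and limma. The processed signal was used as deposited, already corrected for background, per the file headers. The authors' deposited table holds log2 values with nearly equal array medians (5.986 to 6.007) and served as an alternative, and its normalization step is not given in the sources used here. From the processed signal, log2 values minus each array's 75th percentile were computed, outlier spots left out and spots of a probe averaged. A probe was kept where both replicates of any 1 group had it well above background (33689 of 55681), with the brightest probe standing for a gene. Accessions were matched to symbols through RefSeq, and 26582 probes matched. The 4 group means and 5 contrasts were fitted with limma 3.58.1 in R 4.3.3, tested on simulated data. The members and gene lists were chosen with earlier results of these data known. From each list on receptors, ligands and signalling, at most 3 higher and 3 lower genes per comparison were named, by smallest p among those that passed, with the 9 members, Sirpa and Cd40. Genes of like pattern were the 3 of highest Pearson correlation with a member, among tested genes with a symbol whose range was at least 50% of the member's. The 4 promoter motifs were picked from more strings that were looked at, and the others are not reported. Sequences are RefSeq's. Some genes that this rule would name are not reported here.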

Additional observations from a re-analysis of the deposited data

Results flagged for a closer look

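The arrays of Cmklr1 were ordered oppositely by maturity in the 2 subsets. Both mature arrays lay below both immature arrays in Sirpa-positive cells, and above them in Sirpa-negative cells. The difference in Sirpa-positive cells minus that in Sirpa-negative cells was -1.86 on the log2 scale with an SE of 0.412. This difference was tested with limma and did not pass (adjusted p = 0.184, and 0.0809 to 0.687 over the alternatives). The difference in Sirpa-positive cells did not pass either (-0.65, adjusted p = 0.268). Cmklr1 was not well above background on any Sirpa-negative array, and the Sirpa-negative difference was 0.20 with normexp (adjusted p = 0.578).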

How the results depend on the processing

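The results were computed under 19 alternatives, 8 of them leaving out 1 array. With 1 array left in a group, its spread was taken from the other groups. Of 45 results (9 receptors in 5 comparisons), 24 passed, all 24 kept their direction throughout, and 15 passed in every alternative. Of the 21 that did not pass, 14 kept their direction. The labels give no pairing by animal or sort, and no title number is shared between groups. The slide row and the set of title numbers (1 to 4, or 5 to 8), which each hold 1 array of every group, were fitted as blocks instead. With the row block, Ccr9 lost both calls (adjusted p = 0.0693 and 0.0747) and Cmklr1 its Sirpa-negative call (0.0562). With the title set block, Cx3cr1 in Sirpa-positive maturation and Cxcr4 between mature subsets gained calls (0.0443 and 0.0368), and no other receptor call changed under either block. The number of receptors called was 3 in Sirpa-positive maturation, against 1 with no filter and 1 with only probes well above background on all arrays, and 1 to 3 on leaving out an array. It was 7 in Sirpa-negative maturation, against 4 with no filter, 2 with the strict filter and 4 to 6 on leaving out an array. Between immature subsets it was 8, against 2 with the strict filter and 6 to 8 on leaving out an array. Between mature subsets it was 6, against 1 with the strict filter and 5 to 6 on leaving out an array. For the difference of the maturation differences it was 0, against 1 with normexp. The strict filter leaves only 3 receptors to test (Ccr7, Ccr9 and Cxcr4), and no filter raises the genes tested to 37208. With no filter the calls lost were Ccr2 and Cxcr3 in Sirpa-positive maturation, Xcr1, Ccr9 and Cmklr1 in Sirpa-negative maturation, Ccr9 and Cxcr4 between immature subsets and Ccr1 between mature subsets (adjusted p = 0.0741 to 0.142).

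Signs turned only for differences that did not pass. Over the 8 analyses without 1 array, maturation of Cxcr4 ran between -0.091 and 0.063 in Sirpa-positive cells and between -0.052 and 0.50 in Sirpa-negative cells. Over the same 8, Ccr9 between mature subsets ran between -0.59 and 0.0060, and the difference of the maturation differences between -0.44 and 1.40 for Ccr7 and between -0.51 and 0.038 for Cxcr4. Ccr1 maturation in Sirpa-negative cells was -0.028 with normexp, -0.35 with quantile normalization, -0.050 in the authors' values and -0.63 to 1.08 without 1 array. Cx3cr1 in the difference of the maturation differences was -0.32 with normexp and -0.012 in the authors' values. The cause was not tested. Over all genes, the calls in Sirpa-positive maturation were 1664, against 430 with no filter, 1062 with the slide row as a block, 2450 with normexp and 192 to 1458 on leaving out an array. In Sirpa-negative maturation they were 3977, against 1615 with no filter, 2044 with the compared arrays alone and 1719 to 3525 on leaving out an array. Between immature subsets they were 2806, against 1557 with no filter and 1053 to 2711 on leaving out an array. Between mature subsets they were 1322, against 579 with no filter and 483 to 1171 on leaving out an array. For the difference of the maturation differences they were 0, against up to 186 with trended and robust variances and up to 256 on leaving out an array. The 2 arrays per group limit precision, and receptors below background in a group (Ccr1 and Cmklr1 in Sirpa-negative cells, Cx3cr1 in Sirpa-negative mature cells, Xcr1 and Cxcr3 in Sirpa-positive mature cells) have only a bound there.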
